A study of Mus musculus with 4 samples.

Results

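Genes of the SMC complexes, with the cohesin protector Sgol1 and the insulator protein gene Ctcf, were followed in mouse embryonic stem cells that carried a short hairpin against NCAPH2. The genes were chosen by symbol: Ncapd3 of condensin II, Smc1a and Smc3 of cohesin, Sgol1, Ctcf, and Smc5, Smc6 and Nsmce2 of the SMC5/6 complex. All 8 had a row in each of the 4 deposited tables of raw counts, among 1517 rows with a gene symbol. The cells were of the V6.5 line, a pluripotent line in wide use, at passage 3. They were grown on irradiated feeder fibroblasts and then passed without feeders before total RNA was taken and depleted of ribosomal RNA. The control group carried a hairpin against GFP (shGFP, 2 libraries) and the other a hairpin against NCAPH2 (shNCAPH2, 2 libraries). Both groups had been kept in 2 µg/mL puromycin for 5 days, so drug selection is common to them. The labels give neither the hairpin sequences nor the origin of the 2 libraries of a group, so every SE and p below rests on a spread between libraries that may be technical.

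SMC proteins are long coiled-coil ATPases that pair into rings and hold or fold DNA. Condensin compacts chromosomes, cohesin holds sister chromatids together and extrudes loops that stop at CTCF, and SMC5/6 acts in recombination, repair and the silencing of foreign DNA. NCAPH2, the target of the hairpin, is the kleisin that closes the condensin II ring, and NCAPD3 is a HEAT-repeat subunit of the same complex. Embryonic stem cells divide fast and draw on all of these complexes in each cycle.

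The 4 genes for SMC subunits proper share the coding stretch of the nucleotide-binding loop that clasps ATP at the head of the molecule, shown here as a coding feature that these 4 have in common and the other 4 genes lack. The search was for a single form of the codon pattern of this Walker A loop, in frame on the coding strand. It had GGN at the first, the fourth and the sixth codon, AAN at the third and the seventh, and any codon between. Capitals mark the match of 21 bases, with 9 bases of coding sequence on either side. The sequences are from GENCODE M21 transcripts on GRCm38. In Smc1a (within chrX:152016616-152022759, plus strand), Smc3 (within chr19:53601552-53613846, plus strand) and Smc6 (within chr12:11274090-11276276, plus strand) the stretch is spliced across an intron, while in Smc5 (chr19:23268787-23268825, minus strand) it lies in 1 exon.
Smc1a: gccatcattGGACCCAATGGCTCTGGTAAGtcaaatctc
Smc3: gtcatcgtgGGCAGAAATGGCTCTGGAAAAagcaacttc
Smc5: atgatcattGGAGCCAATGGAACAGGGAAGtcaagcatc
Smc6: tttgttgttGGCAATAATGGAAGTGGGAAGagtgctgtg

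The match began at coding base 94 in Smc1a and in Smc3, at base 238 in Smc5 and at base 244 in Smc6. Of its 21 bases, 15 were identical between the cohesin partners Smc1a and Smc3, and 15 between Smc5 and Smc6. Pairs across the complexes shared from 12 bases (Smc3 and Smc5) to 16 (Smc1a and Smc5). The GG and AA bases of the pattern are identical in every pair by the search itself, so these numbers do not rank the genes by likeness. The pattern was in 4 of the 8 genes and was not in Ncapd3, Sgol1, Ctcf or Nsmce2, whose products are not SMC subunits. Of 21877 protein-coding genes with a coding transcript that starts at its first codon base, 86 (0.393%) held it. That is the share with these letters and not the share of genes with a Walker A loop, as other forms were not searched for.

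The starts of 4 of the 8 genes lay within 1000 bases of the start of an upstream coding gene that points the other way. The same held for 6.78% of 21951 protein-coding genes and for 13.4% of the 1160 with a named row in the tables. The spacers between both starts are given for the pairs that the RefSeq promoter windows (GRCm38.p6) cover, to show how short the stretch between 2 opposite starts is. Vps26b codes for a retromer subunit and Gen1 for a resolvase of DNA junctions in recombination. The spacers lie between Vps26b and Ncapd3 (chr9:27030066-27030174, plus strand), Ribc1 and Smc1a (chrX:152016296-152016427, plus strand), and Gen1 and Smc6 (chr12:11265802-11265885, plus strand). Capitals mark matches to a GC box (GGGCGG), the CCAAT box or an ETS site (CCGGAAG) on either strand. An E2F-like core (TTNGCGC), a CHR element (TTTGAA) and an E box (CACGTG) were also looked for, and no matches overlapped.
Ncapd3 spacer: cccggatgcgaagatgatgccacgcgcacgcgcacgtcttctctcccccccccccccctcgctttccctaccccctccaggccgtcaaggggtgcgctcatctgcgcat
Smc1a spacer: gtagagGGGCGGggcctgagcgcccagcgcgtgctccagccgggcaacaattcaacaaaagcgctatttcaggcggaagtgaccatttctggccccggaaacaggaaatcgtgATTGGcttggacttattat
Smc6 spacer: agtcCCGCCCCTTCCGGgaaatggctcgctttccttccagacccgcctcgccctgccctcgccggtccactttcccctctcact

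In the 250 bases before the RefSeq start, a GC box was present in 6 of the 7 genes with a window (all but Smc5), against 32.7% of 32851 windows of that length. The Smc5 window begins 1048 bases inside the gene as the tables and GENCODE place it. An E2F-like core (TTNGCGC) was present in Ctcf and Ncapd3, against 5.19% of windows, and an ETS site in Sgol1 and Smc6, against 6.91%. The CHR element was present in Ctcf, Smc6 and a second, internal window of Ncapd3, against 15.99%. The CCAAT box was present in Smc1a alone, against 33.85%, and the E box in Sgol1 alone, against 6.02%. Base composition goes with these letters: the windows at the 6 gene starts with a GC box held 56.8% to 77.6% G and C, against a median of 52.4% over all windows. These are matches of letters and say nothing of binding. The other divergent pair is Nsmce2 and Washc5, which start 80 bases apart, and both had a row. Washc5, listed as E430025E21Rik, a subunit of the WASH actin-nucleating complex on endosomes, was counted 30 and 23 times in the shGFP libraries and 11 and 12 times in the shNCAPH2 libraries.

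The tables are not whole libraries. Counts in named rows summed to 429907 and 507891 in shGFP and to 243628 and 272426 in shNCAPH2, and each named row had a lower sum in shNCAPH2. The highest kept 67.8% of its shGFP count and the median 46.7%, so a lower raw count in shNCAPH2 is a property of being listed and is no finding about any gene. The knockdown could not be checked on the target transcript, as Ncaph2 had no row with its symbol. Of 10 embryonic stem cell markers, 5 had a row (Pou5f1, Sox2, Nanog, Zfp42 and Esrrb), with summed counts of 2259 and 2432 in shGFP and 1577 and 1289 in shNCAPH2, most of them Nanog. Nanog kept 62.2% and Sox2 61.1% of their shGFP counts, while Zfp42 kept 40.4%, Pou5f1 35.0% and Esrrb 4.17% (11 and 13 counts against 0 and 1). The median of these 5 was 40.4%, against 46.7% over named rows, and none was called by edgeR where tested. Of 12 fibroblast markers, only Igfbp7 had a row, with 58 and 65 counts against 32 and 29. In bulk RNA, fewer cells of a type and less RNA per cell cannot be told apart. The sources used here do not say whether reads were counted by strand. Exons of 7 of the 8 genes overlapped no exon on the opposite strand, while 7.61% of the exon bases of Ctcf overlapped exons of Agrp and Gm5914.

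The 8 genes had between 0 and 31 counts per library, 234 in all in shGFP and 134 in shNCAPH2. The sum in shNCAPH2 was 57.3% of that in shGFP, with an exact 95% interval of 46.0% to 71.1%, against 55.0% over all named rows. Intervals of this kind here and below cover counting error only. The shNCAPH2 libraries were both under both shGFP libraries in 6 of the 8 genes, against 88.4% of all named rows. The genes thus separated about as often as any row, and the 2 that did not were the cohesin ring subunits Smc1a and Smc3. Across genes the count ran from Nsmce2, at 7 in shGFP, to Smc1a, at 48, on either side of the median of 35.0 over named rows.

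**Figure D1:**
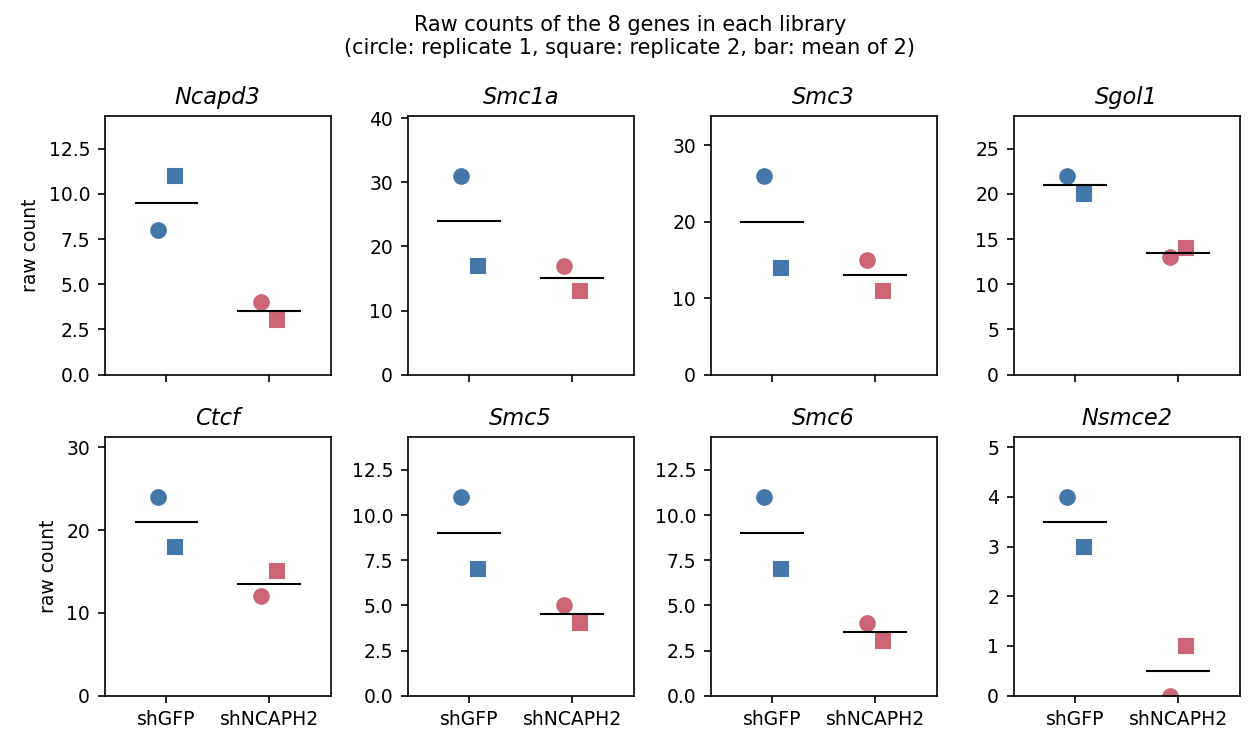
Raw counts (vertical axis, from 0, its range set for each gene) of the 8 genes in the 2 shGFP libraries (blue) and the 2 shNCAPH2 libraries (red), with replicate 1 as a circle, replicate 2 as a square and the mean of 2 as a bar. The groups meet or cross in Smc1a and Smc3, where the lower shGFP library is at 17 and 14 counts, and stand apart in the other 6.

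Condensin II was represented by Ncapd3 alone. Ncapd3 (chromosome 9, 27030175 to 27095311, GRCm38) was counted 8 and 11 times in the shGFP libraries and 4 and 3 times in the shNCAPH2 libraries. The groups did not overlap in counts, and Ncapd3 was the only one of the 8 genes with fewer counts in shGFP replicate 1 than in replicate 2. It kept 36.8% of its shGFP count (exact 95% interval 13.1% to 91.5%), below the median row. Scaled to 100000 counts in named rows, it was at 1.57 and 2.56 in shGFP and 1.64 and 1.10 in shNCAPH2, where the groups overlapped. Of the 8 condensin genes in the list used here (Smc2, Smc4, Ncapd2, Ncapg, Ncaph, Ncapd3, Ncapg2 and Ncaph2), the other 7 had no row with a symbol.

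The cohesin ring pairs SMC1A with SMC3. Smc1a (chromosome X, 152016428 to 152062694) was counted 31 and 17 times in the shGFP libraries and 17 and 13 times in the shNCAPH2 libraries. Smc3 (chromosome 19, 53600398 to 53645833) was counted 26 and 14 times in the shGFP libraries and 15 and 11 times in the shNCAPH2 libraries. In the raw counts of both genes shGFP replicate 1 stood high and the 3 other libraries lay together. There shGFP replicate 2 was equal to shNCAPH2 replicate 1 for Smc1a and below it for Smc3. Scaled to 100000 counts in named rows, Smc1a was at 6.10 and 3.95 in shGFP and 6.98 and 4.77 in shNCAPH2. Smc3 was at 5.12 and 3.26 in shGFP and 6.16 and 4.04 in shNCAPH2. On that scale the groups overlapped, with shNCAPH2 replicate 1 highest and shGFP replicate 2 lowest in both genes. The ratio of shGFP replicate 1 to replicate 2 was 1.82 for Smc1a and 1.86 for Smc3, against 1.18 for the sums of named rows and a median of 1.27 over single rows. The share of the raw count kept changed with the shGFP library left out. Smc1a kept 62.5% of its shGFP count with all libraries, 48.4% without shGFP replicate 2 and 88.2% without shGFP replicate 1. Smc3 kept 65.0%, or 50.0% and 92.9% without those libraries.

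The ratio of the pair to each other was much the same in every library. The Smc1a count was 1.19 and 1.21 times the Smc3 count in the shGFP libraries and 1.13 and 1.18 times in the shNCAPH2 libraries. Per kilobase of exon these ratios were 1.15, 1.17, 1.09 and 1.13. The exact 95% interval of the first of them, before the correction for length, was 0.685 to 2.09, so the 4 ratios differed by far less than their counting error. Among the 896 tested rows, Smc3 was the one whose profile lay nearest to that of Smc1a, at a Euclidean distance of 0.07 between centred log2(count + 1) values over 4 libraries, and Rps6-ps4 came next at 0.08. For Smc3 the nearest was Sod1 at 0.05, followed by Smc1a. With 4 libraries and so few counts such distances are descriptions only.

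SGOL1, or shugoshin, protects centromeric cohesin until anaphase. Sgol1 (chromosome 17, 53674786 to 53689333) was counted 22 and 20 times in the shGFP libraries and 13 and 14 times in the shNCAPH2 libraries. It had the tightest pairs among the 4 genes with more than 20 counts in a library, and its groups did not overlap. It kept 64.3% of its shGFP count (exact 95% interval 38.1% to 107%), and leaving out 1 library moved this only between 61.4% and 67.5%. Scaled to 100000 counts in named rows it was higher in shNCAPH2, at 5.34 and 5.14, than in shGFP, at 4.33 and 4.65. The named rows as a whole kept 55.0%, so a gene that kept more tends to come out higher on this scale although its raw count fell. The rows nearest in profile were Wdr38 and Brd8, both with far more counts, at distances of 0.02 and 0.04.

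CTCF is the zinc finger protein at which cohesin loops stop. Ctcf (chromosome 8, 105636568 to 105682922) was counted 24 and 18 times in the shGFP libraries and 12 and 15 times in the shNCAPH2 libraries. Its sums of 42 and 27 were the same as those of Sgol1, with a wider gap between libraries of a group. It kept 64.3%, ranging from 56.2% to 75.0% when 1 library was left out. Scaled to 100000 counts in named rows it was at 4.73 and 4.19 in shGFP and 4.93 and 5.51 in shNCAPH2, again without overlap and higher in shNCAPH2. Its raw count fell, and the scale has the same limit as for Sgol1. Such a separation upward was seen in 2 of the 8 genes, Sgol1 and Ctcf, against 7.51% of named rows, and the opposite one in Nsmce2 alone, against 33.9%. The rows nearest to Ctcf in profile were Prdx5 and Ipo5, each at a distance of 0.04.

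The SMC5/6 complex had 3 of the 8 genes. Smc5 (chromosome 19, 23206441 to 23273897) and Smc6 (chromosome 12, 11265886 to 11319785), whose products form its ring, each had 11 and 7 counts in shGFP. In shNCAPH2 Smc5 had 5 and 4 counts and Smc6 had 4 and 3. Neither gene's groups overlapped in raw counts, as in 88.4% of named rows, and in both genes the libraries ranked in the same order. Scaled to 100000 counts in named rows, the groups of both genes overlapped. Smc5 was then at 2.17 and 1.63 in shGFP and 2.05 and 1.47 in shNCAPH2. Smc6 was at 2.17 and 1.63 in shGFP and 1.64 and 1.10 in shNCAPH2. Smc5 kept 50.0% (exact 95% interval 19.8% to 117%) and Smc6 38.9% (13.7% to 97.6%). Nsmce2 (chromosome 15, 59374198 to 59601683), the SUMO ligase of the complex, was counted 4 and 3 times in the shGFP libraries and 0 and 1 times in the shNCAPH2 libraries. Its count in shGFP was 7.0 times that in shNCAPH2, with an exact 95% interval of 0.899 to 315.5. Another subunit gene, Nsmce4a, was listed too, with 6 and 6 counts against 4 and 0.

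Per kilobase of merged exon, the mean level in shGFP was highest for Sgol1, at 5.51 counts, followed by Ctcf at 4.32, Smc1a at 4.16 and Smc3 at 3.61. A second tier held Smc5 at 1.33, Ncapd3 at 1.20, Nsmce2 at 1.06 and Smc6 at 0.72. Ctcf (3.70 and 4.94 in the 2 libraries), Smc1a (2.95 and 5.37) and Smc3 (2.53 and 4.69) overlapped and cannot be ordered, and Sgol1 (5.25 and 5.77) overlapped Smc1a. In the lower tier Smc5 (1.03 and 1.62), Ncapd3 (1.01 and 1.39) and Nsmce2 (0.906 and 1.21) overlapped, and Smc6 (0.560 and 0.880) lay under all of them. These ranges of 2 libraries leave out counting error and set no firm order. Smc6 rests on 11 and 7 counts and Nsmce2 on 4 and 3. In shNCAPH2 the same 4 genes led, from 2.35 for Smc3 to 3.54 for Sgol1, and the lower tier ran from 0.15 for Nsmce2 to 0.66 for Smc5. The place of Smc6 depends on its 12502 bases of merged exon, the longest of the 8.

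The share kept was pooled over 2 sets of genes, with Ncapd3 (36.8%) in neither. Smc1a, Smc3, Sgol1 and Ctcf together had 172 counts in shGFP and 110 in shNCAPH2, which is 64.0% (exact 95% interval 49.9% to 81.7%). The 3 SMC5/6 genes had 43 and 17, which is 39.5% (21.1% to 70.8%), and the intervals overlapped. The SMC5/6 genes made up 19.0% and 17.5% of the counts of all 8 genes in shGFP and 12.9% and 12.5% in shNCAPH2. The shares were close within a group and did not overlap between groups, but the interval of each library was wide, at 12.8% to 26.6% in shGFP replicate 1 and 5.55% to 23.2% in shNCAPH2 replicate 2. With 2 libraries a group an exact two-sided permutation test cannot give a p under 0.333, and no test of this difference was made.

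**Figure D2:**
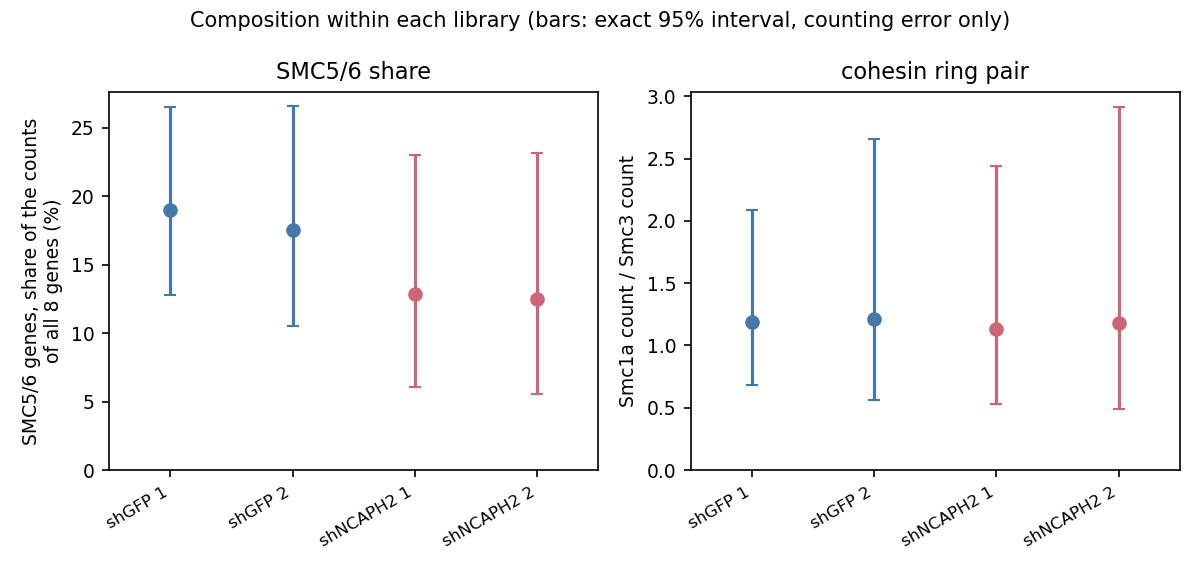
Left, the counts of Smc5, Smc6 and Nsmce2 as a percentage of the counts of all 8 genes in each library. Right, the count of Smc1a divided by that of Smc3. Points are libraries (blue shGFP, red shNCAPH2) and bars are exact 95% intervals for counting error. The left points drop from 19.0% and 17.5% to 12.9% and 12.5% with overlapping bars, and the right points stay between 1.13 and 1.21.

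Count level also differed between these sets of genes. Over all named rows, the median share kept was 11.1% in the 153 rows with fewer than 10 counts in shGFP, which include Nsmce2. It was 35.0% in the 547 rows with 10 to 30 counts, which include Ncapd3, Smc5 and Smc6. It was 53.8% in the 297 rows with 31 to 60 counts, which include Smc1a, Smc3, Sgol1 and Ctcf, and 57.6% in the 520 rows above that. The highest share listed was 33.3% in rows under 10 counts, 66.7% in rows with 10 to 30 and in rows with 31 to 60, and 67.8% above that. Shares of 60% or more were found in 2.93% of rows with 10 to 30 counts and in 28.3% of rows with 31 to 60. The part of count level in the difference between the complexes was not tested. Against rows of their own level, Smc5, Smc6 and Ncapd3 lay above the median, and so did Nsmce2 and the 4 genes of cohesin and CTCF.

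**Figure D3:**
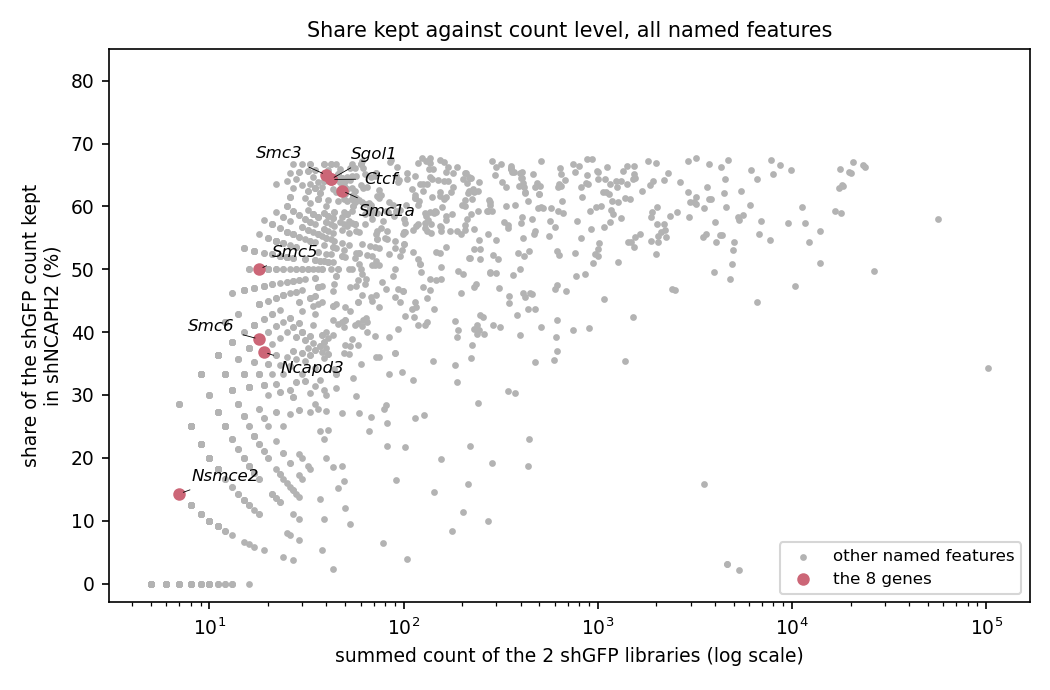
Share of the shGFP count kept in shNCAPH2 (vertical axis, percent) against the summed shGFP count (horizontal axis, log scale) for the 1517 named rows (grey) and the 8 genes (red, Sgol1 and Ctcf at the same point). The grey cloud stops at 67.8%, and at 33.3% under 10 counts, and Smc1a, Smc3, Sgol1 and Ctcf sit near its upper edge at 62.5% to 65.0%.

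The 4 genes near the upper edge were among the 203 named rows (13.4%) that kept at least 62.5%. Smc3 kept more than 93.5% of named rows did, Sgol1 and Ctcf more than 91.6%, and Smc1a more than 86.6%. Smc5 kept more than 54.5% of rows did, Smc6 more than 38.6%, Ncapd3 more than 36.0% and Nsmce2 more than 12.1%. A share of 60% or more was kept by 4 of the 8 genes, against 19.5% of named rows. Among rows with 31 to 60 counts in shGFP, the level of these 4 genes, it was 28.3%. The cut of 62.5% is the value of Smc1a itself, and that of 60% lies just below the 4 genes. These shares and ranks are descriptions only.

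A test across all named rows was then read for these genes. With edgeR's quasi-likelihood test after TMM scaling, 896 rows passed the filter on low counts, Smc1a, Smc3, Sgol1 and Ctcf among them, and log2 fold changes are measured against the middle of the tested rows, at a median of -0.004. None of the 4 was called at a Benjamini-Hochberg adjusted p under 0.05, against 1.0% of tested rows called lower and 0.0% called higher. None passed at an unadjusted p under 0.05 either (6.36% of rows lower), nor by DESeq2, which called 1.0% of rows lower. Relative log2 fold changes were 0.22 ± 0.41 (SE) for Smc3, 0.19 ± 0.36 for Ctcf, 0.19 ± 0.36 for Sgol1 and 0.16 ± 0.38 for Smc1a, each with an edgeR adjusted p of 0.999. Over the alternatives tried, the adjusted p of tested members ranged from 0.088 to 0.999.

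These values sat close to the highest the list allowed, which was 0.26, and their 95% intervals were wide. That of Smc3 ran from -0.70 to 1.14, and those of Ctcf and Sgol1 from -0.62 to 0.999 and -0.62 to 0.994. For Smc1a it was -0.69 to 1.01. The intervals thus include changes of about these sizes in either direction relative to other rows. Upward, no tested row passed 0.26, so the list limits what can be seen there as well as the depth. The values of Smc1a and Smc3 turned slightly negative without shGFP replicate 2 (-0.08 and -0.03) or without shNCAPH2 replicate 1 (-0.08 and -0.05), while those of Sgol1 and Ctcf stayed positive without any 1 library.

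Ncapd3, Smc5, Smc6 and Nsmce2 were under the filter. In a fit with no filter, where 1.38% of 1517 rows were called lower and 0.0% higher, none of the 8 genes was called, nor did any pass at an unadjusted p under 0.05, as 10.5% of rows did. Relative log2 fold changes in it were -0.05 ± 0.64 (SE) for Smc5, -0.41 ± 0.68 for Smc6, -0.49 ± 0.68 for Ncapd3 and -1.70 ± 1.27 for Nsmce2, with edgeR adjusted p of 0.68 to 0.99. The median of all rows in that fit was -0.15, so Smc5 lay above it and the 3 others below.

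Without any scaling the same genes all had negative values. When each library was given the same size, the median over rows moved to -0.84 with the filter, and the 4 tested genes had log2 fold changes of -0.67 (Smc1a), -0.62 (Smc3), -0.63 (Sgol1) and -0.63 (Ctcf). None was called (edgeR adjusted p of 0.15 to 0.24), against 30.6% of the 928 rows tested so, and none passed at an unadjusted p under 0.05, against 52.9%. With equal sizes and no filter, Smc5 was at -0.98, Smc6 at -1.33, Ncapd3 at -1.41 and Nsmce2 at -2.54, beside a median of -1.09. None was called there, nor was any row, and at an unadjusted p under 0.05 Ncapd3 and Nsmce2 passed, as did 48.3% of rows. The change of scaling shifts all rows by about the same amount, so a gene's place against the median row under it is not a second observation.

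**Figure D4:**
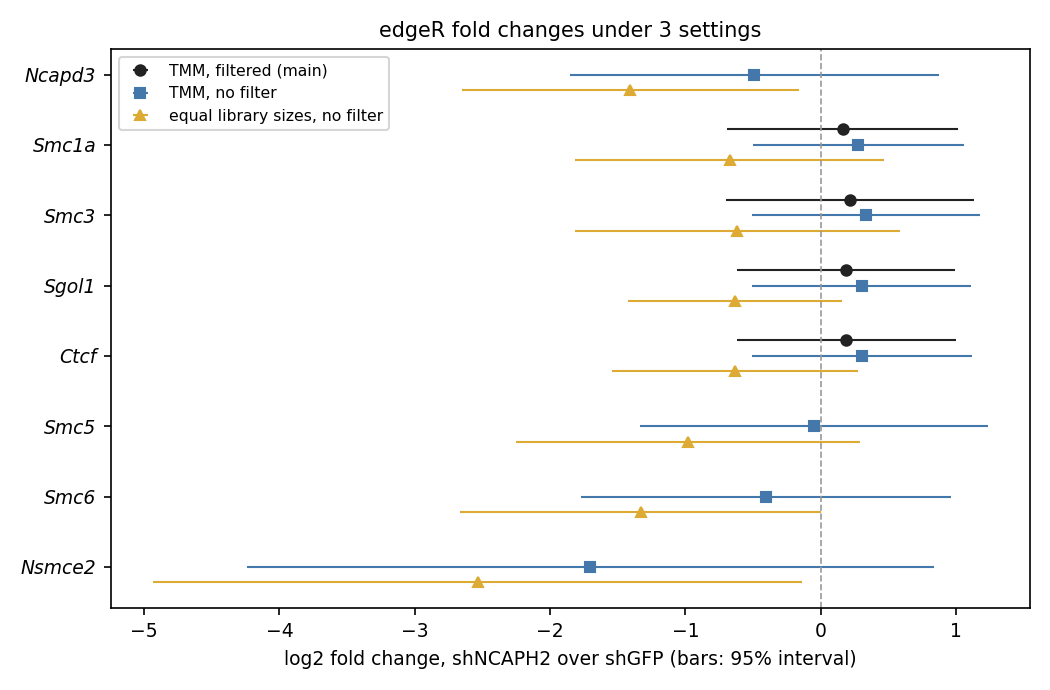
Log2 fold change of shNCAPH2 over shGFP (horizontal axis) for the 8 genes by edgeR, with 95% intervals as bars, under TMM scaling with the filter (black), TMM without a filter (blue) and equal library sizes without a filter (yellow). Smc1a, Smc3, Sgol1 and Ctcf change sign between the scalings, from 0.16 to 0.22 down to -0.67 to -0.62, and no gene was called under any of the 3.

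The genes around these in the same pathways were counted by list. Of 51 genes of condensin, cohesin, its loading and release, insulators, SMC5/6 and other chromosome structure, 10 had a row: the 8 described here, Nsmce4a and Zfp143. Of these 10, 4 were tested in the filtered fit and 0 called in either direction, by edgeR at an adjusted or unadjusted p under 0.05 or by DESeq2. Of all tested rows, edgeR called 1.0% lower and 0.0% higher at an adjusted p under 0.05, and DESeq2 called 1.0% lower. At an unadjusted p under 0.05 in edgeR, 6.36% were lower. With so few rows called, 0 of 4 is no result about these pathways. Of the 9 cohesin core genes Smc1a and Smc3 had a row, and of the 13 genes for loading, release and protection only Sgol1 did. Zfp143, a promoter-bound zinc finger factor found at loop anchors, was counted 5 and 7 times in the shGFP libraries and 2 and 1 times in the shNCAPH2 libraries, and kept 25.0%. The insulator list had 2 of 7 genes with a row, SMC5/6 had 4 of 9 and the list of other chromosome structure genes 0 of 5. Median shares kept were 36.1% for the 4 SMC5/6 genes and 63.7% for the pair of cohesin core genes, against 46.7% over all named rows. The sets differ in count level. The median row kept 11.1% under 10 counts in shGFP and 35.0% at 10 to 30, the levels of the SMC5/6 genes. It kept 53.85% at 31 to 60, the level of the cohesin pair.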

How the data were processed

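Raw counts by row, with symbol, position and strand, were deposited by the authors as 1 table for each library. Per the submitters' processing notes, TopHat2 2.0.10, edgeR and the build mm9 were used, in roles not stated. Positions follow GRCm38: 5 of the 8 genes have the start and end of GENCODE M21, and the others differ by at most 49 bases. The annotation used for counting and the choice of rows are not given in the sources used here. The 101 rows without a symbol (22.2% to 23.3% of counts) were left out of sums and tests. The counts were tested in edgeR 4.0.16 (R 4.3.3; glmQLFit, glmQLFTest, TMM, filterByExpr, group alone, 2 residual degrees of freedom, two-sided), checked on simulated counts. SEs were derived from each log2 fold change and its F statistic. Intervals of counts are exact (Clopper-Pearson, SciPy 1.17.1). The members and lists were chosen with earlier results of these data known. All 8 members are named whatever their values, and the 2 nearest rows in profile for each tested one. Alternatives were RLE factors, equal library sizes, other filters, a replicate block, each library left out, DESeq2 1.42.0 and a threshold of 0.1.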

Additional observations from a re-analysis of the deposited data

How the results depend on the processing

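None of the 8 genes was called at an adjusted p under 0.05 wherever it was tested in the 12 settings. The threshold of 0.1 was applied to the main fit only, and none of the 4 genes tested there passed it. With equal library sizes and no filter, Ncapd3 and Nsmce2 had edgeR adjusted p of 0.088 and 0.094, and the other genes were above 0.1. The number of rows called was 9 with the settings used above, 16 with RLE size factors, 284 with equal library sizes, 21 with no filter, 17 with the stricter filter, 9 with DESeq2, 19 at an adjusted p under 0.1 and 12 to 18 without 1 library, where the lone library of a group is assumed to vary like the others. It was 0 with equal library sizes and no filter together, a setting added after the data were seen. The cause was not tested. Fold changes turned negative with equal library sizes, with or without the filter, in Smc1a (-0.67), Smc3 (-0.62), Sgol1 (-0.63) and Ctcf (-0.63), as the scaling shifts the median to -0.84 or -1.09. Leaving out 1 library gave -0.081 to 0.504 for Smc1a and -0.054 to 0.577 for Smc3. Of the shares kept without 1 library, 31 of 32 stayed within the counting interval; that of Nsmce2 moved to 0.0% without shNCAPH2 replicate 2. A replicate block left 4 rows called. Whether same-numbered libraries belong together is not known. Their deviations had a correlation of -0.05 over 896 tested rows, which cannot settle it. The block changed no call of the 4 genes tested in it. Counts of 0 to 31 per library limit all values.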
